A study of Homo sapiens with 12 samples.

Results

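Lipoprotein lipase and 4 genes that control it or share its substrates were followed across 12 RNA-seq libraries of human macrophages made from a monocytic cell line. The 5 genes, LPL, ANGPTL4, LMF1, LRP1 and VLDLR, were taken by their symbols from a table of 58907 genes. All 5 were among the 15252 genes that passed the filter on low counts. The cells were (PPRE)-eGEP-THP-1, a derivative of THP-1, a line from a human monocytic leukaemia. The labels call their cell type monocyte. All cells were first treated with phorbol 12-myristate 13-acetate (PMA, 25 ng/mL for 48 h), which turns THP-1 cells into adherent macrophages, and rested for 24 h. The 4 groups then differed in 2 treatments given together for 24 h, with 3 libraries per group, which the series design calls biological replicates. M1 MCHP cells received lipopolysaccharide (LPS, 100 ng/mL) and interferon gamma (IFN-γ, 20 ng/mL) with 100 µM monocyclohexyl phthalate (MCHP), and M1 DMSO cells received the same cytokines with the solvent DMSO. M2 MCHP cells received interleukins 4 and 13 (IL-4 and IL-13, 20 ng/mL each) with 100 µM MCHP, and M2 DMSO cells received these interleukins with DMSO. MCHP is a monoester of dicyclohexyl phthalate, a plasticizer. All 4 groups come from a single reporter line of leukaemic origin, which limits them as a model of tissue macrophages.

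Lipoprotein lipase splits the triglycerides of chylomicrons and very low density lipoproteins (VLDL) into fatty acids that cells take up. Muscle, fat and macrophages make it, and it works outside the cell after leaving the secretory pathway as a folded dimer. LMF1 is a membrane protein of the endoplasmic reticulum that the lipase needs to reach its active form. ANGPTL4 is a secreted protein that inactivates the lipase, and it is a known target of the fatty acid sensing nuclear receptors called PPARs and of hypoxia. VLDLR and LRP1 belong to a family of lipoprotein receptors: VLDLR binds triglyceride-rich particles that carry apolipoprotein E, while LRP1 is a large endocytic receptor for remnant particles, the lipase itself and many protease complexes.

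In the table's hg38 coordinates, LPL (ENSG00000175445) lies on chromosome 8 from 19901717 to 19967259 on the plus strand. ANGPTL4 (ENSG00000167772) lies on chromosome 19 from 8363289 to 8374373 on the plus strand. LMF1 (ENSG00000103227) lies on chromosome 16 from 853634 to 981318 on the minus strand. LRP1 (ENSG00000123384) lies on chromosome 12 from 57128493 to 57213351 on the plus strand, and VLDLR (ENSG00000147852) on chromosome 9 from 2621834 to 2660053, also on the plus strand. All 5 are protein-coding genes. No strand setting is given in the sources used here, so reads from genes that overlap on opposite strands could not be told apart. LRP1 overlaps the start of STAT6, a transcription factor of IL-4 signalling with 1869 to 3254 counts per library. VLDLR overlaps the antisense gene VLDLR-AS1, with 64 to 146 counts, and ANGPTL4 shares its last base with RAB11B-AS1, with 30 to 53 counts. The 5 genes that overlap LMF1 had 0 to 5 counts each.

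The libraries held 14352202 to 16871233 counts. The first principal component, with 71.2% of the variance, separated M1 from M2. One library, M2 DMSO replicate 1, lay away from its group. Its log2 distance to the average of its 2 fellow libraries had an SD over genes of 0.445. The other libraries had 0.316 to 0.352. Values without M2 DMSO replicate 1 are given beside each member result whose call or sign it changed. Of the related genes read below, only APOC3 has such a value of its own. Of 9 macrophage markers, 6 were above 1 CPM (counts per 1e+06, scaled with TMM factors), namely ITGAM, CSF1R, LYZ, FCER1G, CD14 and CD163. CD68 and MSR1, which also define macrophages, averaged under 1 CPM in every group, and MRC1 was at 0 outside M2 MCHP, where it averaged 0.044 CPM. Summed markers of M1 polarization were 12200 to 12730 CPM in M1 MCHP and 12110 to 12870 CPM in M1 DMSO, against 4852 to 5825 CPM in M2 MCHP and 5641 to 5868 CPM in M2 DMSO. Summed markers of M2 polarization were 2373 to 2394 CPM in M1 MCHP and 2169 to 2216 CPM in M1 DMSO, against 11300 to 11500 CPM in M2 MCHP and 8842 to 11230 CPM in M2 DMSO. Single genes carried most of both sums. IL1B averaged 10350 and 10430 CPM in M1 MCHP and M1 DMSO, against 5272 and 5638 CPM in M2 MCHP and M2 DMSO. TGM2 averaged 2295 and 2115 CPM in M1 MCHP and M1 DMSO, against 10050 and 9391 CPM in M2 MCHP and M2 DMSO. CCL22 averaged 14.2 and 12.3 CPM in M1 MCHP and M1 DMSO, against 1214 and 742 CPM in M2 MCHP and M2 DMSO. ALOX15, CD209 and FCER2 also averaged higher in both M2 groups than in either M1 group. Of the other M2 markers, MAOA was at 0, and CCL17 and CD1B were near 0. CCL13 was at 3.07 and 3.88 CPM in M1 MCHP and M1 DMSO, against 1.93 and 4.77 CPM in M2 MCHP and M2 DMSO.

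The series set out to learn how MCHP bears on macrophage polarization, here in M2 cells, the alternatively activated state. ANGPTL4 and VLDLR rose with MCHP in M2. LPL itself, LMF1 and LRP1 did not pass the test. Calls are at an adjusted p under 0.05 by edgeR's quasi-likelihood test with Benjamini-Hochberg adjustment over the 15252 genes. The share of all genes called was 5.11%, with 2.92% called higher and 2.18% lower, while 2 of 5 members were called, both higher. The members were chosen with earlier results of these data known. Shares of all genes, here and below, are therefore no independent comparison for them. The groups did not overlap for 3 of 5 members, 2 of them higher with MCHP and 1 lower. For all genes that share was 20.8%, with 11.2% higher and 9.53% lower.

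LPL, the lipase, had 505, 543 and 530 CPM in M2 MCHP replicates 1, 2 and 3, against 643, 551 and 551 CPM in M2 DMSO replicates 1, 2 and 3. The MCHP libraries were all below the DMSO libraries, though the highest MCHP library came close to M2 DMSO replicates 2 and 3, and M2 DMSO replicate 1 was far above the rest. The means were 526 ± 19.2 CPM with MCHP and 582 ± 52.8 CPM with DMSO (SD, n = 3 each), and the log2 fold change was -0.14 ± 0.06 (SE; 95% interval -0.28 to -0.0077; edgeR adjusted p = 0.237). Without M2 DMSO replicate 1 it was -0.07 ± 0.05 (adjusted p = 0.419).

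LMF1, the maturation factor, had 7.17, 9.29 and 8.42 CPM in M2 MCHP, against 5.99, 8.41 and 8.95 CPM in M2 DMSO. The groups overlapped, and in each group replicate 1 was lowest. The log2 fold change was 0.09 ± 0.15 (edgeR adjusted p = 0.818), and its sign depended on single libraries: it was -0.063 without M2 DMSO replicate 1 and -0.0018 without M2 MCHP replicate 2.

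ANGPTL4, the inhibitor, had 8.39, 10.1 and 9.18 CPM in M2 MCHP, against 5.80, 6.30 and 6.04 CPM in M2 DMSO. Every MCHP library was above every DMSO library. These are low counts, 130 to 174 per library with MCHP and 92 to 107 with DMSO. The means were 9.22 ± 0.85 CPM with MCHP and 6.04 ± 0.25 CPM with DMSO (SD, n = 3 each), a 1.53-fold rise (log2 0.61 ± 0.14, 95% interval 0.31 to 0.91, edgeR adjusted p = 0.0185). The call was lost without M2 MCHP replicate 2 (0.54, adjusted p = 0.0731), without M2 MCHP replicate 3 (0.61, 0.066) and when the M2 groups were fitted without the M1 groups (0.60, 0.0687). Without M2 DMSO replicate 1 it held (0.58, 0.0161).

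Of the receptors, VLDLR had 220, 217 and 218 CPM in M2 MCHP, against 177, 167 and 171 CPM in M2 DMSO. The MCHP libraries lay within a narrow band well above all DMSO libraries. Means were 218 ± 1.62 CPM with MCHP and 172 ± 5.17 CPM with DMSO (SD, n = 3 each), a 1.27-fold rise (log2 0.35 ± 0.06, 95% interval 0.23 to 0.47, edgeR adjusted p = 0.0012). It was called under every alternative run, with a log2 fold change of 0.33 to 0.37 over the fits that left out a library. LRP1 had 323, 319 and 333 CPM in M2 MCHP, against 270, 314 and 319 CPM in M2 DMSO. These groups overlapped narrowly, and the low value of M2 DMSO replicate 1 carried most of the gap between the means. The log2 fold change of LRP1 was 0.11 ± 0.06 (95% interval -0.03 to 0.24, edgeR adjusted p = 0.386), and 0.04 ± 0.05 without M2 DMSO replicate 1.

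**Figure D1:**
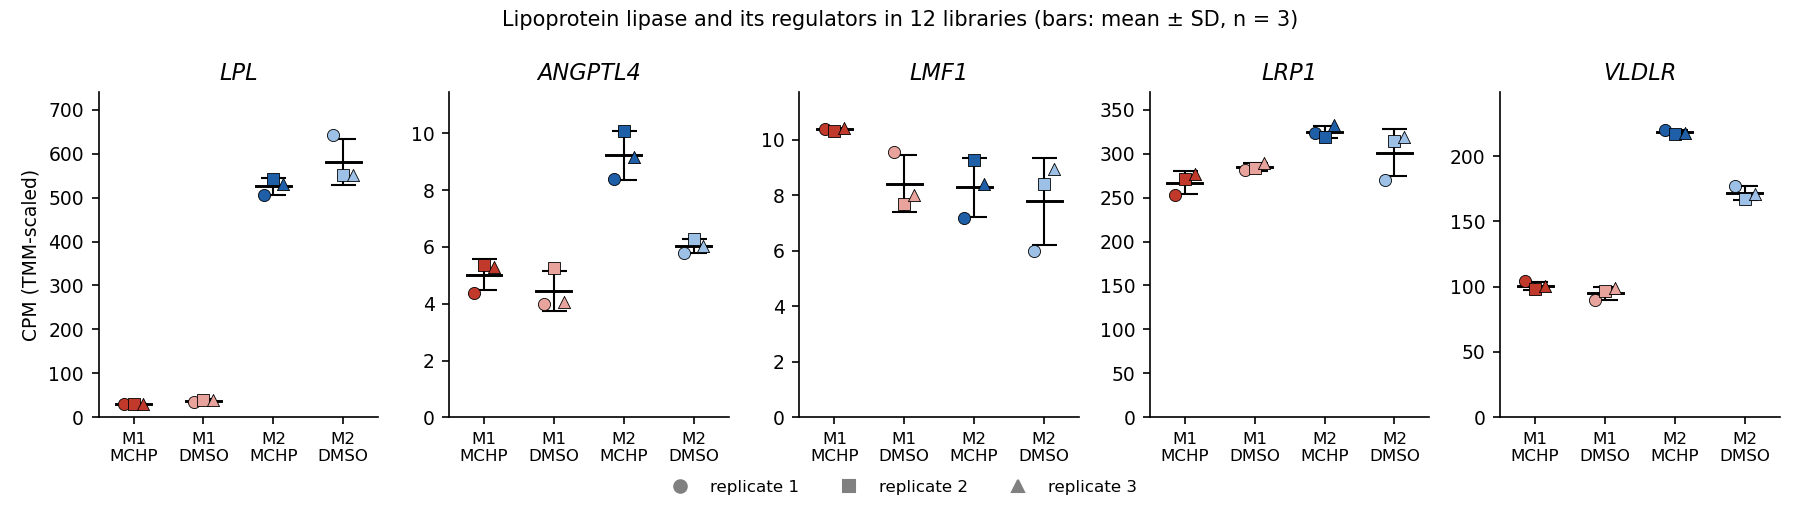
TMM-scaled CPM (y axis, from 0, a scale per panel) of the 5 genes in each library, with groups on the x axis, marker shapes for replicate numbers and bars for the mean ± SD of 3 libraries. LPL sits near 30 to 40 CPM in the M1 groups and above 500 CPM in the M2 groups, and the M2 MCHP points of ANGPTL4 and VLDLR lie above all other points of their panels.

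The sequence upstream of both genes that rose in M2 is shown because they moved together in this contrast and their promoters were not used to choose them. The promoters are 250 bases up to the gene start in RefSeq on GRCh38.p14, plus strand, 5′ to 3′, at chr19:8363905-8364154 for ANGPTL4 and chr9:2621537-2621786 for VLDLR. The RefSeq start of ANGPTL4 lies past the start in the table, so its window is inside the table's gene model, while that of VLDLR ends before it. Capitals mark exact matches, on either strand, to the hypoxia response cores ACGTG and GCGTG, the TATA box TATAAA and the GC box GGGCGG.
ANGPTL4: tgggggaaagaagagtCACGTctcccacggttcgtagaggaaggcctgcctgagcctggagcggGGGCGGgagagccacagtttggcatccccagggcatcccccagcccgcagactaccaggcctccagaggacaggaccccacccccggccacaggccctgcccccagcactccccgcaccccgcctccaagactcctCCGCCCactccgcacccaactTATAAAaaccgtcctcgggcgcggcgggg
VLDLR: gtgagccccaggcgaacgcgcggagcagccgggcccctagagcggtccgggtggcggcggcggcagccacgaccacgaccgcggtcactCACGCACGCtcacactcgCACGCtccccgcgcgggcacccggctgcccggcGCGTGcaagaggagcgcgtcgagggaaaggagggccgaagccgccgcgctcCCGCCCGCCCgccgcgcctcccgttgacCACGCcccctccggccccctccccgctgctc
GC content was 68.8% for ANGPTL4 and 78.8% for VLDLR. ANGPTL4 held 1 TATA box, from 29 to 24 bases before the start, with 10.7% of 35116 promoter windows of the same length holding one. It also held 1 ACGTG core on the minus strand, from 234 to 230 bases before the start, found in 18.5% of windows. VLDLR held 5 GCGTG cores, of which the first 2 overlap by 1 base, while 32.2% of windows held at least 1. Both held 2 GC boxes, those of VLDLR overlapping each other, as 42.6% of windows held at least 1. Neither held the nuclear receptor half-site AGGTCA (12.1% of windows), the PPAR-RXR direct repeat of this half-site with 1 base between the copies (0.0171%), the STAT6 palindrome of TTC and GAA with 4 bases between them (5.38%) or the CCAAT box CCAAT (32.0%). With the 2 forms of the hypoxia core counted apart, the GC box was the only one of the 8 motifs searched that both windows contained. Each window did hold a form of that core, ACGTG in ANGPTL4 and GCGTG in VLDLR. The share of windows with either form was not counted. These matches describe letters, not bound sites.

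MCHP was set against DMSO in M1 cells in the same way, and none of the 5 genes passed the test with edgeR, DESeq2 or limma-voom, while 1, LPL, had an unadjusted p under 0.05 in each. Over all genes, 0.0852% were called, and 817 of 15252 had an unadjusted p under 0.05 in edgeR. The groups did not overlap for 3 of 5 members, 1 higher and 2 lower with MCHP, beside 15.9% of all genes, with 8.35% higher and 7.58% lower. LPL had 30.7, 30.5 and 29.96 CPM in M1 MCHP, against 35.4, 38.5 and 40.2 CPM in M1 DMSO. The MCHP libraries agreed to within 1 CPM and were all below the DMSO libraries. The means were 30.4 ± 0.40 CPM with MCHP and 38.0 ± 2.45 CPM with DMSO (SD, n = 3 each), a log2 fold change of -0.32 ± 0.08 (95% interval -0.49 to -0.16). With an unadjusted p of 0.000547 it ranked 45 of 15252 genes, but the edgeR adjusted p was 0.185. It passed when M2 DMSO replicate 1 was left out, which is not compared here but enters the estimate of spread (-0.32, adjusted p = 0.00321). It also passed when the M1 groups were fitted without the M2 groups (-0.33, 0.0058) and with no filter on low counts (-0.33, 0.0156).

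LMF1 had 10.4, 10.3 and 10.4 CPM in M1 MCHP, against 9.58, 7.69 and 8.02 CPM in M1 DMSO. All MCHP libraries were above the DMSO libraries, which spread more than the MCHP libraries. The log2 fold change of 0.30 ± 0.15 was not called (95% interval -0.02 to 0.62, edgeR adjusted p = 0.941). ANGPTL4 had 4.38, 5.38 and 5.31 CPM in M1 MCHP, against 4.003, 5.26 and 4.07 CPM in M1 DMSO. Those groups overlapped, with a log2 fold change of 0.17 ± 0.16 (95% interval -0.17 to 0.51, edgeR adjusted p = 0.998) on 56 to 81 counts per library. LRP1 had 253, 271 and 277 CPM in M1 MCHP, against 282, 284 and 290 CPM in M1 DMSO. No MCHP library reached the lowest DMSO library, while the log2 fold change of -0.09 ± 0.06 was not called (edgeR adjusted p = 0.992). VLDLR had 104, 98.0 and 101 CPM in M1 MCHP, against 89.5, 96.3 and 99.1 CPM in M1 DMSO, and the groups overlapped (0.09 ± 0.06, 95% interval -0.04 to 0.21, edgeR adjusted p = 0.992).

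The difference between both responses, M1 minus M2, was tested as a contrast of its own, in which 0.164% of all genes were called. None of the 5 genes was among them, nor among those called by DESeq2 or limma-voom, and 2 had an unadjusted p under 0.05. In edgeR 1349 of all 15252 genes had such a p. VLDLR came nearest, with a difference of -0.26 ± 0.08 (95% interval -0.43 to -0.09, unadjusted p = 0.00506, edgeR adjusted p = 0.32), and without M2 DMSO replicate 1 it was called (-0.28 ± 0.07, adjusted p = 0.0198). ANGPTL4 differed by -0.44 ± 0.22 (95% interval -0.89 to 0.02, adjusted p = 0.591) and LRP1 by -0.20 ± 0.09 (adjusted p = 0.529). For LPL the difference was -0.18 ± 0.10 (adjusted p = 0.654) and for LMF1 0.21 ± 0.22 (adjusted p = 0.843). Without M2 DMSO replicate 1 these 4 were not called either, with edgeR adjusted p = 0.423 for ANGPTL4 (-0.41 ± 0.23), 0.304 for LRP1 (-0.13 ± 0.06), 0.063 for LPL (-0.26 ± 0.07) and 0.383 for LMF1 (0.37 ± 0.19).

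**Figure D2:**
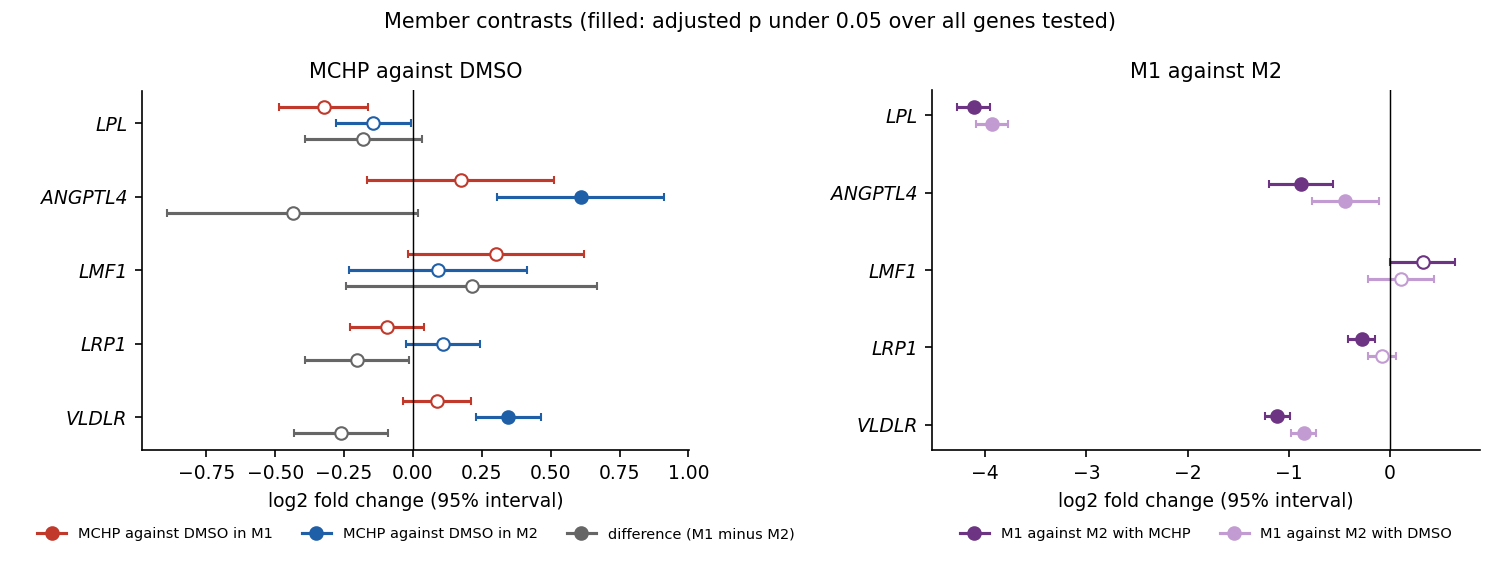
Log2 fold changes (x axis) of the 5 genes (y axis) with 95% intervals, for MCHP against DMSO and its difference between M1 and M2 (left) and for M1 against M2 (right), with filled points for an edgeR adjusted p under 0.05. On the left only ANGPTL4 and VLDLR in M2 are filled, and on the right LPL lies near -4.

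The comparison of M1 with M2 asked how these genes differ between the polarization states. No group was left unpolarized, so a lower level in M1 and a higher level in M2 cannot be told apart. LPL was far lower in M1, in solvent and with MCHP, and VLDLR and ANGPTL4 were lower by smaller amounts in both. LRP1 passed the test with MCHP and not in solvent, while the difference between these comparisons, which is the contrast of responses above, was not called. LMF1 was called in neither. In solvent 42.5% of all genes were called and 20.9% were called lower. With MCHP the shares were 44.6% called and 22.7% lower. Of the 5 members, 3 were called in solvent and 4 with MCHP, all lower. Groups that did not overlap, with M1 lower, were found for the same numbers of members, beside 24.1% of all genes in solvent and 28.8% with MCHP. These comparisons use the same libraries as those of MCHP with DMSO.

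LPL averaged 38.0 ± 2.45 CPM in M1 DMSO and 582 ± 52.8 CPM in M2 DMSO (SD, n = 3 each), which made it 15.3-fold lower in M1 (log2 -3.93 ± 0.08, edgeR adjusted p = 9.96e-18). The raw counts were 495, 571 and 632 in M1 DMSO, against 10197, 9365 and 9665 in M2 DMSO. With MCHP it averaged 30.4 ± 0.40 CPM in M1 and 526 ± 19.2 CPM in M2, 17.3-fold lower in M1 (log2 -4.11 ± 0.08, adjusted p = 6.65e-18). By the size of p it ranked 12 of 15252 genes in solvent and 11 with MCHP.

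VLDLR was 1.81-fold lower in M1 than in M2 in solvent (log2 -0.85 ± 0.06, edgeR adjusted p = 6.09e-10). With MCHP it was 2.16-fold lower in M1 (log2 -1.11 ± 0.06, adjusted p = 1.15e-11), and no M1 library overlapped an M2 library in either comparison. ANGPTL4 averaged 4.44 ± 0.71 CPM in M1 DMSO and 6.04 ± 0.25 CPM in M2 DMSO, a log2 fold change of -0.44 ± 0.16 (edgeR adjusted p = 0.029). That call was lost without M1 DMSO replicate 1 (adjusted p = 0.108) or 3 (0.108), without M2 DMSO replicate 2 (0.0753) or 3 (0.057), in a fit of the compared groups alone (0.0584) and with no filter on low counts (0.0737). With MCHP the gap was 5.02 ± 0.56 CPM in M1 and 9.22 ± 0.85 CPM in M2, 1.84-fold lower in M1 (log2 -0.88 ± 0.15, adjusted p = 8.43e-05).

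LRP1 averaged 267 ± 12.9 CPM in M1 MCHP and 325 ± 7.15 CPM in M2 MCHP, a 1.22-fold lower level in M1 (log2 -0.28 ± 0.06, edgeR adjusted p = 0.00136). In solvent it was 285 ± 4.16 CPM in M1 and 301 ± 26.9 CPM in M2, with a log2 fold change of -0.08 ± 0.06 (adjusted p = 0.339). The solvent comparison was called without M2 DMSO replicate 1 (-0.15, adjusted p = 0.0066) and with library size as the only scaling (-0.21, 0.00981), which shifted the median of all genes to -0.13. LMF1 averaged 10.4 ± 0.06 CPM in M1 MCHP and 8.29 ± 1.07 CPM in M2 MCHP, with a log2 fold change of 0.32 ± 0.15 (adjusted p = 0.0953). M1 was above M2 in every library, as for 28.3% of all genes, and the value was called when M2 DMSO replicate 1 was left out (0.32, 0.0386) or the compared groups were fitted alone (0.32, 0.0461). In solvent LMF1 differed by 0.11 ± 0.15 (adjusted p = 0.612), with the sign turning to -0.018 under library size alone and to -0.046 without M2 DMSO replicate 1.

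Levels of different genes were compared per kilobase of gene model, as RPKM (counts per kilobase of gene model, scaled like CPM) on the same TMM scale. In M1 the order was LRP1, VLDLR, LPL, ANGPTL4 and LMF1, from high to low, and in M2 it was LPL, VLDLR, LRP1, ANGPTL4 and LMF1. LPL moved from the third place to the first. Its mean level was 6.94 RPKM in M1 MCHP and 8.68 RPKM in M1 DMSO, above 65.4% and 70.5% of the genes tested in those groups. It was 120 RPKM in M2 MCHP and 133 RPKM in M2 DMSO, above 98.4% and 98.6% of genes. VLDLR had 10.8 RPKM in M1 MCHP, 10.2 RPKM in M1 DMSO, 23.4 RPKM in M2 MCHP and 18.4 RPKM in M2 DMSO. For LRP1 the same groups had 12.8, 13.7, 15.6 and 14.5 RPKM, the flattest course among the genes over 5 RPKM. ANGPTL4 stayed at 2.02, 1.79, 3.72 and 2.44 RPKM, and LMF1 was lowest with 1.26, 1.02, 1.01 and 0.945 RPKM. This order was the same in every library of a polarization state. The closest neighbours were LRP1 and VLDLR in M1 MCHP replicate 1, with a ratio of 1.09.

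The balance between the lipase and its inhibitor was read as a ratio of RPKM levels within each library. It was 3.97, 3.21 and 3.20 in M1 MCHP, against 5.01, 4.15 and 5.59 in M1 DMSO. In M2 it was 34.1, 30.5 and 32.7 with MCHP, against 62.8, 49.6 and 51.6 with DMSO. All MCHP libraries thus had less LPL transcript per ANGPTL4 transcript than any DMSO library of the same polarization. The ratio of LPL to VLDLR was 0.630, 0.663 and 0.636 in M1 MCHP, against 0.842, 0.851 and 0.865 in M1 DMSO. In M2 this ratio was 4.90, 5.34 and 5.19 with MCHP, against 7.73, 7.03 and 6.88 with DMSO. Here too the groups did not overlap in either polarization state. These ratios were chosen after the values of their genes were known and carry no test, and RNA levels say nothing of secreted or active protein.

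**Figure D3:**
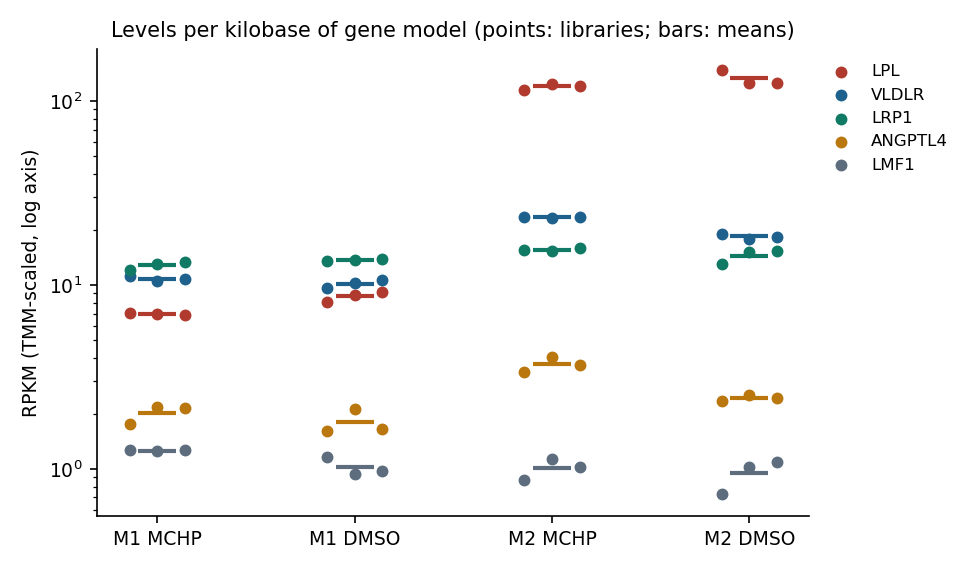
Levels per kilobase of gene model (y axis, TMM-scaled RPKM, log axis) for the 5 genes by group (x axis), with a point per library and a bar at the mean. LPL lies below VLDLR and LRP1 in both M1 groups and above them in both M2 groups, while LMF1 stays near 1 RPKM throughout.

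The genes whose pattern over the 12 libraries was most like each member were found by Pearson's r of log2 CPM among 9611 protein-coding genes. These values are descriptions, since the libraries fall into an M1 and an M2 cluster and any gene with a large gap between these correlates well. For LPL they were CDC42EP3 (r = 0.998), the ceramide kinase gene CERK (0.998) and the protease inhibitor gene SPINT2 (0.997), and 621 genes had r over 0.95. SPINT2 averaged 6.11 CPM in M1 MCHP and 6.82 CPM in M1 DMSO, against 108 CPM in M2 MCHP and 129 CPM in M2 DMSO. For VLDLR the genes were the chaperone gene HSP90AB1 (0.995), the serine synthesis gene PSAT1 (0.993) and the fatty acid binding protein gene FABP3 (0.993), with 431 genes over 0.95. ANGPTL4 had a single gene over 0.95. The 3 most like it were BPNT1 (0.955) and 2 genes of fatty acid handling, FABP5 (0.946), which binds fatty acids and has near-identical copies that can share its reads, and PLIN4 (0.944), a lipid droplet coat protein. PLIN4 averaged 4.87 CPM in M1 MCHP, 4.41 CPM in M1 DMSO, 14.1 CPM in M2 MCHP and 8.52 CPM in M2 DMSO. LRP1 was most like KIAA0513 (0.983), CCDC85C (0.964) and TBCD (0.954), with 4 genes over 0.95. LMF1 was most like GGACT (0.919), the actin gene ACTG1 (0.893) and REPIN1 (0.889), with no gene over 0.95.

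Around these members, 85 other genes of lipase handling, lipoprotein receptors and their control were read in 7 lists by role, of which 73 passed the filter on low counts. The lists were chosen with earlier results of these data known. Their shares beside those of all genes are therefore descriptions, not an independent comparison. With MCHP in M2, 10 of the 73 were called, 8 higher and 2 lower, a share of 13.7% beside 5.11% of all genes. Their median log2 fold change was 0.04, and that of all genes was -0.00034. Without M2 DMSO replicate 1, 19 were called, 13 higher and 6 lower, a share of 26% beside 11.2% of all genes, and the median was 0.0095. In M1 NR1H3 was the single gene called by edgeR and limma-voom, 1.37% beside 0.0852% of all genes, while DESeq2 also called DAB2 and SLC2A3. Without that library edgeR called 4 in M1, 5.48% beside 1.02% of all genes. In the difference of responses edgeR and limma-voom called none of the 73 and DESeq2 called 1, EPAS1. In edgeR 9 of the 73 had an unadjusted p under 0.05, beside 1349 of all 15252 genes. Without that library 5 were called by edgeR, 6.85% beside 2.46% of all genes.

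Among the genes that fold, mature or carry the lipase, 2 of 10 tested rose with MCHP in M2 and 1 fell (median 0.03). Of all genes, 2.92% were called higher and 2.18% lower. SORL1, a sorting receptor that moves the lipase to lysosomes, had 3.94, 4.59 and 5.34 CPM in M2 MCHP, against 9.83, 8.36 and 8.10 CPM in M2 DMSO. The groups stood well apart, and the log2 fold change was -0.92 ± 0.18 (edgeR adjusted p = 0.00436), called under all 19 alternatives. SDC3, a heparan sulphate proteoglycan of the cell surface, to which the lipase can bind, rose by 0.59 ± 0.12 (adjusted p = 0.00742), with means of 32.1 ± 2.60 CPM with MCHP and 21.2 ± 4.18 CPM with DMSO. Of 19 alternatives only the fit restricted to M2 lost this call (0.0689). SDC4, of the same family, rose by 0.25 ± 0.06 (0.0273), which 15 of 19 alternatives kept. SEL1L, which takes part in the folding of the lipase, was at 0.23 ± 0.07 and not called by edgeR (adjusted p = 0.0507), but was called by DESeq2 (0.034) and limma-voom (0.046). The chaperone gene CALR and the LMF1 paralog LMF2 were not called by edgeR, DESeq2 or limma-voom. SDC1 and GPIHBP1, which holds the lipase on capillary endothelium, did not pass the filter, with at most 9 and 5 counts in a library.

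Secreted factors and proteases that act on the lipase gave 1 call among 7 tested in M2 (median 0.05), beside 5.11% of all genes. APOC3, an apolipoprotein that inhibits the lipase, rose by 0.49 ± 0.14 (edgeR adjusted p = 0.0462), a call that 6 of 19 alternatives kept. Without M2 DMSO replicate 1 it was at 0.31 ± 0.10 (adjusted p = 0.0522). It had 19.2, 17.1 and 18.5 CPM in M2 MCHP, against 9.39, 14.7 and 14.8 CPM in M2 DMSO, where replicate 1 was lowest. APOE, the receptor ligand of remnant particles, was at 0.04 (adjusted p = 0.809) and FURIN, a protease that cleaves ANGPTL4 and the lipase, at 0.08 (0.714). ANGPTL8, a related secreted factor, had at most 3 counts in a library, the activator APOC2 at most 2 and APOA5 none. Of 2 other lipases tested, the lysosomal lipase gene LIPA was at -0.09 (0.563) and the endothelial lipase gene LIPG at 0.29 (0.569). M2 DMSO replicate 1 was lowest of its group for APOE (1020 CPM, against 1244 and 1291) and FURIN (766 CPM, against 1074 and 1082). For LIPA it was highest (2281 CPM, against 1838 and 1808). The signs of these small changes may rest on that library, and fits of these genes without it are not given.

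In the lipoprotein receptor family beside LRP1 and VLDLR, none of 10 tested genes was called with MCHP in M2 or in M1 by edgeR, DESeq2 or limma-voom. At an unadjusted p under 0.05 in edgeR there was 1 in M2 and there were 2 in M1, beside 2863 and 817 of all 15252 genes. The list's median log2 fold changes were 0.08 in M2 and 0.11 in M1. LRP5 had the smallest p in M2 (0.35 ± 0.12, adjusted p = 0.102). Of 7 chaperones, adaptors and degraders of these receptors, the endocytic adaptor DAB2 rose in M2 by 0.20 ± 0.06 (0.0464), which 3 of 19 alternatives kept. It was the single call among the 7 in M2, beside 5.11% of all genes. In M1 DAB2 averaged 107 ± 5.38 CPM with MCHP and 87.8 ± 1.85 CPM with DMSO (SD, n = 3 each), without overlap, and was not called by edgeR (0.28 ± 0.06, adjusted p = 0.0849) but was by DESeq2 (0.00369). LRPAP1, the chaperone of the family, and MYLIP, a ubiquitin ligase that degrades VLDLR, were not called.

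Of 15 transcription factors with a known action on LPL, ANGPTL4 or VLDLR, 2 rose with MCHP in M2 (median 0.07). Of all genes, 2.92% were called higher. NR1H3, the sterol receptor LXR alpha, which acts on LPL, had 54.4, 53.8 and 51.8 CPM in M2 MCHP, against 30.1, 30.1 and 28.3 CPM in M2 DMSO. The groups were narrow and far apart, with a log2 fold change of 0.85 ± 0.07 (edgeR adjusted p = 7.64e-07), called under all 19 alternatives. In M1 NR1H3 had 40.1, 41.4 and 41.2 CPM with MCHP, against 29.7, 27.2 and 29.6 CPM with DMSO, and rose by 0.50 ± 0.07 (adjusted p = 0.00775), which 14 of 19 alternatives kept. EPAS1, the hypoxia-inducible factor HIF-2 alpha, rose in M2 by 0.43 ± 0.09 (0.00596), to 82.2 ± 6.87 CPM with MCHP, against 61.1 ± 7.67 CPM with DMSO, a call that only the fit restricted to M2 lost among 19 alternatives (0.0916). In M1 it had 52.65, 49.39 and 49.37 CPM with MCHP, against 58.9, 53.59 and 57.9 CPM with DMSO. These M1 groups did not overlap, with MCHP lower, as for 7.58% of all genes, and edgeR, DESeq2 and limma-voom did not call it. DESeq2 alone called its difference of responses (-0.60, DESeq2 adjusted p = 0.00498). PPARG was at -0.19 (0.337) and HIF1A at -0.04 (0.831) in M2, neither of them called. For both genes M2 DMSO replicate 1 was the highest of its group. PPARG had 127.8 CPM in it, against 89.62 and 96 CPM in replicates 2 and 3. HIF1A had 87.08 CPM, against 81.32 and 66.53 CPM. Fits of these genes without that library are not given.

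Hypoxia targets were read because ANGPTL4 is one. Of 22 tested, 2 rose and 1 fell with MCHP in M2, with a median of 0.0022. Of all genes, 2.92% were called higher and 2.18% lower. HILPDA, an inhibitor of triglyceride breakdown that PPARs also raise, had 8.65, 8.71 and 7.46 CPM in M2 MCHP, against 2.77, 2.94 and 4.56 CPM in M2 DMSO. It rose by 1.27 ± 0.21 (edgeR adjusted p = 0.00118) and was called under all 19 alternatives. ENO1 of glycolysis rose by 0.25 ± 0.06 (0.0166) and VEGFA, the growth factor of blood vessels, fell by 0.24 ± 0.06 (0.0196), and each call was kept by 16 of 19 alternatives. In M1 edgeR and limma-voom called none of the hypoxia targets and DESeq2 called 1. At an unadjusted p under 0.05 in edgeR there were 5, beside 817 of all 15252 genes.

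**Figure D4:**
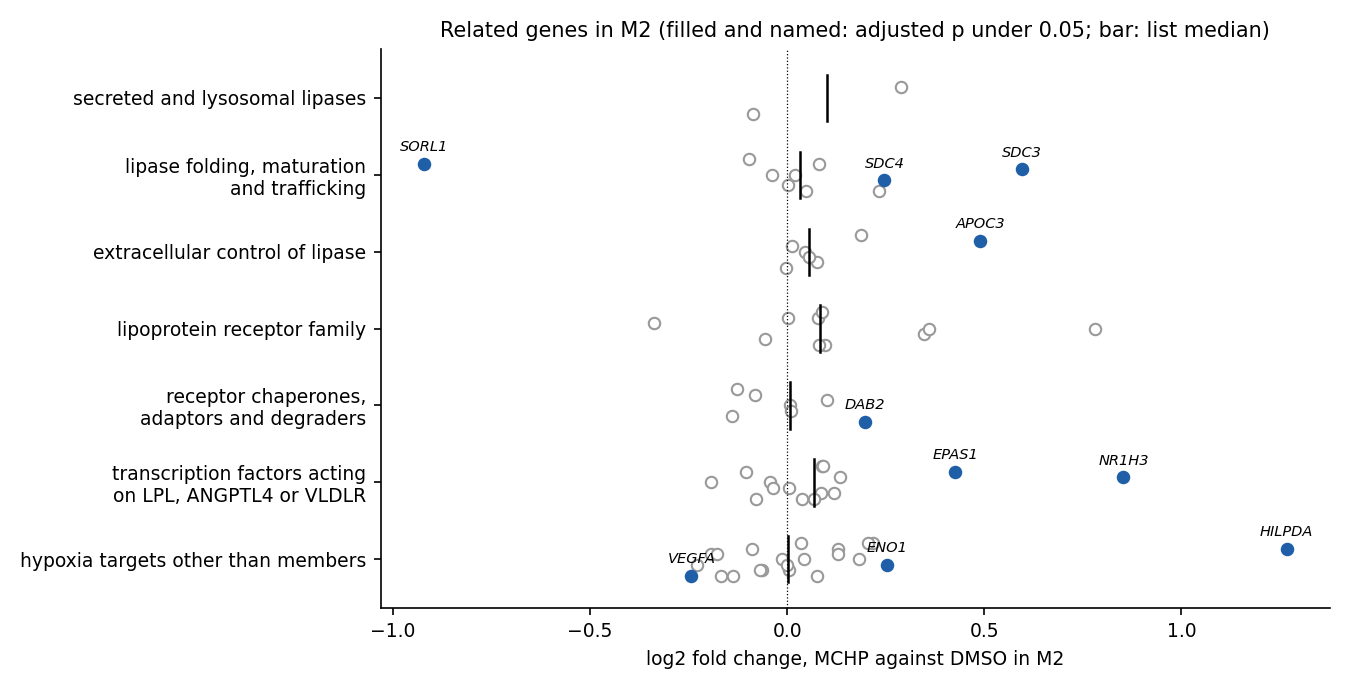
Log2 fold changes of MCHP against DMSO in M2 (x axis) for the 73 tested genes of the 7 role lists (y axis), with filled, named points for an edgeR adjusted p under 0.05 and a bar at each list's median. The list medians lie between 0.0022 and 0.10, and the 10 named genes are spread over 5 of the 7 lists.

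Between M1 and M2 in solvent, 41 of the 73 genes were called, 16 higher and 25 lower in M1, a share of 56.2% beside 42.5% of all genes. With MCHP it was 44, 13 higher and 31 lower, a share of 60.3% beside 44.6% of all genes. SORL1 had the largest gap, with 0.364 ± 0.19 CPM in M1 DMSO and 8.76 ± 0.94 CPM in M2 DMSO (log2 -4.57 ± 0.27, edgeR adjusted p = 6.73e-11). Lower in M1 in solvent were also LIPA (-1.45), APOC1 (-1.71), LRP8, the receptor closest to VLDLR in structure (-1.75), LRP12 (-0.82), DAB2 (-1.04) and PPARG (-1.85). Higher in M1 were FURIN (0.99), APOC3 (0.94), LMF2 (1.06), HIF1A (1.12) and the glucocorticoid receptor gene NR3C1 (0.72).

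Markers of other cell types were read beside these results. Of 6 adipocyte markers, ADIPOQ, PLIN1, LEP, CIDEC and CIDEA were at or near 0, and GPD1 was the one that reached an average over 1 CPM in any group. The summed list was 22.9 to 26.9 CPM in M2 MCHP, against 6.81 to 9.24 CPM in M2 DMSO, and 1.06 to 1.97 CPM in M1 MCHP, against 0.674 to 1.08 CPM in M1 DMSO. GPD1, which makes glycerol phosphate, carried nearly all of it, with 25.1 ± 2.04 CPM in M2 MCHP and 7.83 ± 1.26 CPM in M2 DMSO. A single gene was above 1 CPM in every group in 3 other lists: VWF of 4 endothelial markers, TRAC of 4 T cell markers and COL1A1 of 4 fibroblast markers. VWF averaged 23.4 CPM in M1 MCHP and 23.02 CPM in M1 DMSO, and 84.6 CPM in M2 MCHP and 66.95 CPM in M2 DMSO. TRAC averaged 11.5 CPM in M1 MCHP and 15.9 CPM in M1 DMSO, and 20.3 CPM in M2 MCHP and 32.6 CPM in M2 DMSO. VWF, like VLDLR, was thus higher in M2 than in M1 and higher with MCHP in M2, while TRAC was lower with MCHP in both states, in each case without overlap and without a test. Of all genes, 20.8% had MCHP and DMSO groups without overlap in M2 and 15.9% in M1. COL1A1 averaged 130.1 CPM in M1 MCHP and 116 CPM in M1 DMSO, also without overlap, and 27.6 CPM in both M2 groups. No epithelial marker averaged over 1 CPM in any group, and of 3 B cell markers CD79A did so in M2 MCHP alone, at 1.004 CPM. Their part in the members' results was not tested. In bulk RNA, fewer cells that express a gene and less RNA of it per cell cannot be told apart.

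The responses of the 5 genes to MCHP were compared over 19 alternatives. In M2, VLDLR was called in all of them and ANGPTL4 in 16, while LPL, LRP1 and LMF1 were called in none.

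**Figure D5:**
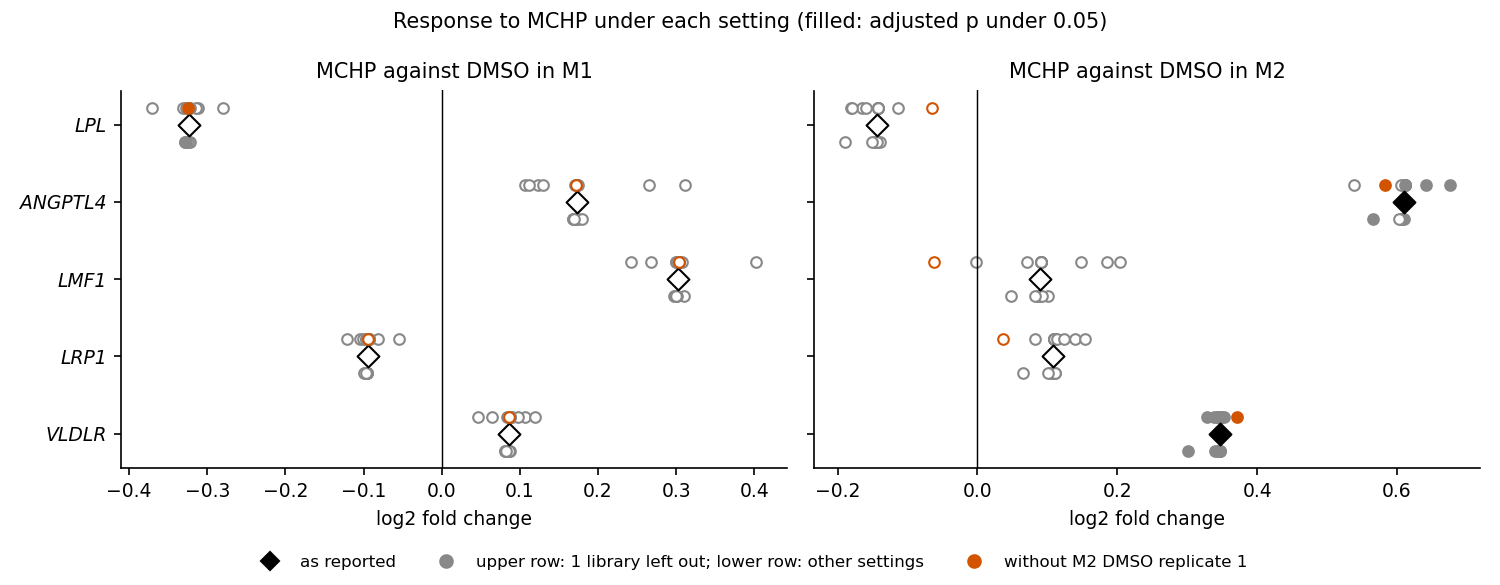
Log2 fold changes of MCHP against DMSO (x axis) of the 5 genes (y axis) in M1 (left) and M2 (right) under each alternative, with diamonds for the reported value, upper points for fits without 1 library and lower points for other settings, orange for the fit without M2 DMSO replicate 1, and filled points for an adjusted p under 0.05. VLDLR is filled throughout in M2, and LMF1 crosses 0 in M2 when M2 DMSO replicate 1 or M2 MCHP replicate 2 is left out.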

How the data were processed

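Poly(A)-selected RNA was sequenced from 12 libraries, 3 for each of 4 groups taken from the sample labels. The deposited table gives, per the file headers, raw counts for each gene beside its model's length. Tools named in the submitters' processing notes, without roles, are DESeq2 1.20.0, featureCounts 1.5.0-p3, fastp, HISAT2 2.0.5 and StringTie 1.3.3b, with hg38 as the build. The strand setting is not given in the sources used here.

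The analysis used edgeR 4.0.16 in R 4.3.3. The filter filterByExpr over the 4 groups left 15252 of 58907 genes and at least 99.8% of each library's counts (26650 genes had none). TMM factors scaled the libraries, and all 12 were fitted with 1 mean per group (8 residual degrees of freedom). P-values of the two-sided quasi-likelihood F-test were adjusted over all genes tested (Benjamini-Hochberg) and called under 0.05. Standard errors and 95% intervals came from the F statistic. CPM and RPKM were computed from the deposited counts. Likeness used log2 CPM with a prior count of 2, for genes with a mean of at least 5 CPM. Libraries held 14352202 to 16871233 counts, so low genes such as ANGPTL4 and LMF1 are measured less precisely. Fits were also run on simulated counts without an outlying library, which cannot show how M2 DMSO replicate 1 bears on the calls.

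Named genes were the 5 members, of each list every gene called in an MCHP comparison and otherwise up to 4 with the smallest p per comparison, the 3 most alike genes per member, and overlapping genes. List genes that failed the filter, markers and genes called by DESeq2 alone were named after their values were seen. The members and lists were chosen with earlier results of these data known. Promoters came from the RefSeq table, which held those of ANGPTL4 and VLDLR that are printed. It also held 1 of LRP1 and 2 of LMF1, whose matches are not given, and 0 of LPL. Alternatives were DESeq2 size factors, library size alone, no filter, the DESeq2 1.42.0 test, limma-voom (limma 3.58.1), a replicate block, the compared groups alone and each library left out. P-values measure the spread between libraries called biological replicates, with no separate cultures named. Results on some list genes are not reported here.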

Additional observations from a re-analysis of the deposited data

How the results depend on the processing

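Of the members' log2 fold changes under the alternatives, 449 kept their direction and side of the threshold, 8 passed it, 9 no longer did and 4 changed sign. Scaled by library size alone, the log2 fold change of LMF1 between M1 and M2 in solvent was -0.018 and that of LRP1 -0.21. Levels under it were 6.66 RPKM for LPL, 1.21 for LMF1 and 10.4 for VLDLR in M1 MCHP, 13.2 for LRP1 in M1 DMSO, 23.9 for VLDLR in M2 MCHP, and 2.56 for ANGPTL4 and 19.4 for VLDLR in M2 DMSO. The same scaling called 306 genes higher and 465 lower with MCHP in M2, against 446 and 333 with TMM, and between M1 and M2 it called 2395 higher and 4532 lower in solvent and 2678 and 4338 with MCHP. Without a filter, LPL with MCHP in M1 was at -0.33, ANGPTL4 between M1 and M2 in solvent at -0.45, and 76 genes (43 higher, 33 lower) were called in M1 and 170 in the difference of responses, against 13 and 25. The DESeq2 test called 50 (28 higher, 22 lower) and 97. In fits of the compared groups alone, with fewer samples, ANGPTL4 in M2 was at 0.60, LPL in M1 at -0.33, ANGPTL4 between M1 and M2 in solvent at -0.45 and LMF1 with MCHP at 0.32, with 183 genes called in M2 and 295 (149 higher, 146 lower) in M1.

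With 1 library left out, genes called ranged from 383 to 1747 in M2, 1 to 159 in M1 and 5 to 385 in the difference, the highest each without M2 DMSO replicate 1. For MCHP in M2, ANGPTL4 ranged from 0.54 to 0.68 and LMF1 from -0.063 to 0.20 (-0.0018 without M2 MCHP replicate 2). LPL in M1 ranged from -0.37 to -0.28 and the difference for VLDLR from -0.30 to -0.23. Between M1 and M2 in solvent, ANGPTL4 ranged from -0.58 to -0.38, LMF1 from -0.046 to 0.22 and LRP1 from -0.15 to -0.036, and LMF1 with MCHP from 0.23 to 0.41. List genes called without M2 DMSO replicate 1, an alternative chosen after seeing the data, were 19 in M2, 4 in M1 and 5 in the difference. The cause of these changes was not tested.

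No pairing by replicate number was seen in the values. Deviations of same-numbered libraries correlated at -0.05 to 0.04 over 18 pairs, against -0.05 to 0.05 over 36 other pairs. With no cultures named, these correlations cannot settle whether same-numbered libraries shared a culture or day. With a replicate block, 5 genes were called in M1 (all 5 higher), 692 in M2 and 24 in the difference, and no call on a member changed. Depth limits ANGPTL4 and LMF1 most, and intervals cover the spread between libraries only.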
